A study of Bos taurus with 14 samples.

Results

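The proteasome genes of the bovine mammary gland were followed through the last weeks before calving in cows kept under long or short days. They were taken as every probe set whose single annotated gene symbol starts with PSMA, PSMB, PSMC, PSMD, PSME, PSMF or PSMG followed by a number. The choice uses names alone and no measured value. It gave 46 of the 24016 probe sets tested, for 40 of the 9155 genes named on the array. All 40 symbols matched a bovine RefSeq gene by its gene identifier. Another probe set was present for 6 of the genes (PSMB2, PSMC2, PSMC5, PSMC6, PSMD4 and PSMD6). A gene is described by the probe set with the highest mean over the arrays, and the other is given where it differs.

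The proteasome is the protease that degrades most short-lived and damaged proteins of the cell, usually after they have been tagged with ubiquitin. Its barrel-shaped 20S core has outer alpha rings, which gate entry, and inner beta rings, which carry the catalytic sites. The 19S particle binds the ends of the core, where its ATPases unfold tagged proteins and its other subunits recognise and remove ubiquitin. Interferon gamma makes cells replace the catalytic subunits PSMB5, PSMB6 and PSMB7 by PSMB8, PSMB9 and PSMB10, which gives the immunoproteasome. The same signal raises the PA28 activator (PSME1 and PSME2), and immune cells carry much of this form without induction.

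By role, the 40 genes were 6 alpha-ring genes (PSMA1, PSMA3, PSMA4, PSMA5, PSMA6 and PSMA7), 7 constitutive beta-ring genes (PSMB1 to PSMB7), the 3 induced catalytic subunits and both PA28 genes. The 19S particle was represented by its 6 ATPases (PSMC1 to PSMC6) and by 7 non-ATPase subunits (PSMD1, PSMD2, PSMD4, PSMD6, PSMD11, PSMD13 and PSMD14). Its assembly chaperones PSMD5, PSMD9 and PSMD10 and the core's assembly chaperones PSMG1, PSMG2 and PSMG3 added 3 genes each. PSME4, the PA200 activator, PSMF1, the PI31 regulator, and PSME3IP1 completed the set. PSME3IP1 encodes a partner of a nuclear activator and is not a subunit, although its symbol follows the pattern. PSMA2, PSMD3, PSMD7, PSMD8, PSMD12, PSME3 and PSMG4 were not analysed here.

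The tissue came from biopsies of Holstein cows that had been dried off about 60 days before calving was due. Cows had been randomised to long days (LD in the labels, 16 h light and 8 h dark) or short days (SD in the labels, 8 h light and 16 h dark) until the end of the dry period. The 14 arrays comprised 3 from long days and 3 from short days at day -24 from calving, and 4 and 4 at day -9. No genotype, transgene or other agent is named, and all cows were pregnant and not milked. RNA passed an integrity number of 7, and 2 µg of it was labelled from an oligo(dT) primer. The labels give no cow identities, so p-values measure the spread between these samples, and whether the same cows gave both biopsies is not given in the sources used here. The comparisons ask how photoperiod and the approach to calving relate to the gland's transcripts.

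Values are log2 signals after robust multi-array average (RMA), so a difference of 1 is a doubling. There is no read depth behind an array value, and precision depends on how many arrays a group has and on the spread of each probe set. Array medians lay between 6.43 and 6.61, and no 2 arrays were identical. The beta-casein gene CSN2 had a mean log2 signal of 12.81 and the luminal keratin gene KRT18 8.46, both above the array medians on every array. In whole tissue, fewer cells of a type and less RNA per cell cannot be told apart. Array weights, estimated by limma with a typical value of 1, were lowest for 4 arrays, the long-day replicate 1 of day -24 (0.26), the long-day replicate 4 of day -9 (0.42), the short-day replicate 3 of day -24 (0.43) and the short-day replicate 1 of day -9 (0.50). Differences of many members shifted without these arrays, and values without them are given beside the results. Each of the 4 was also the lowest or highest of its group in the mean proteasome signal, so such shifts follow in part from their choice. The gap between 3' and 5' probe sets of 6 control transcripts, a sign of RNA quality, ranged over 0.78 to 1.02 in long days and 0.95 to 1.18 in short days at day -24. At day -9 it ranged over 0.76 to 1.07 in long days and 0.74 to 0.89 in short days.

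Proteasome transcripts were well detected. Of the 46 probe sets, 1 had a mean below the highest array median, the additional probe set of PSMC5 at 5.52. Their spread within groups was small. The median residual standard deviation was 0.176 on the log2 scale for the 46, against 0.244 for all probe sets and 0.234 for those with a mean signal at or above the median. It was smallest for PSME4 (0.0725), PSMD14, the 19S enzyme that removes ubiquitin chains (0.085), and the alpha-ring gene PSMA6 (0.0916). Among the genes, it was largest for PSMB10 (0.358), PSMB9 (0.355), the chaperone gene PSMD10, also called gankyrin (0.341), and PSMB5 (0.303). The induced catalytic subunits had a median of 0.355, the alpha ring 0.13, the constitutive beta ring 0.155 and the 19S ATPases 0.171. These spreads are descriptions and were not tested against each other.

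The genes varied together from array to array. After each group's mean was subtracted, the median Pearson correlation over the 741 pairs of the 39 genes other than PSME3IP1 was 0.59. It was 0.71 over 78 pairs within the constitutive core, 0.69 over 78 pairs within the 19S particle and 0.91 over the 10 pairs of the induced subunits and PA28. Between the core and the induced genes it was 0.70 over 65 pairs, and between the 19S particle and the induced genes 0.50 over 65. The same 14 arrays and their normalisation underlie every pair, so these correlations describe the arrays and carry no test. PSMA7 followed the others most closely (median correlation 0.78). PSME4 went the other way (-0.55) and the ATPase gene PSMC6 was near 0 (-0.087).

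Much of the shared variation lay in a few arrays. The mean of the 40 genes, each centred on its own mean, ranged over -0.17 to 0.058 in long days and -0.18 to 0.13 in short days at day -24. At day -9 it ranged over -0.019 to 0.20 in long days and -0.22 to 0.059 in short days, so the groups overlapped on both days. The short-day replicate 1 of day -9 held the lowest signal of 17 of the 40 genes and the long-day replicate 1 of day -24 that of 12. The long-day replicate 4 of day -9 held the highest signal of 15 genes and the short-day replicate 3 of day -24 that of 10. These are the 4 arrays of low weight. Such counts were not made over all probe sets, so whether they are particular to the proteasome genes is not known.

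**Figure D1:**
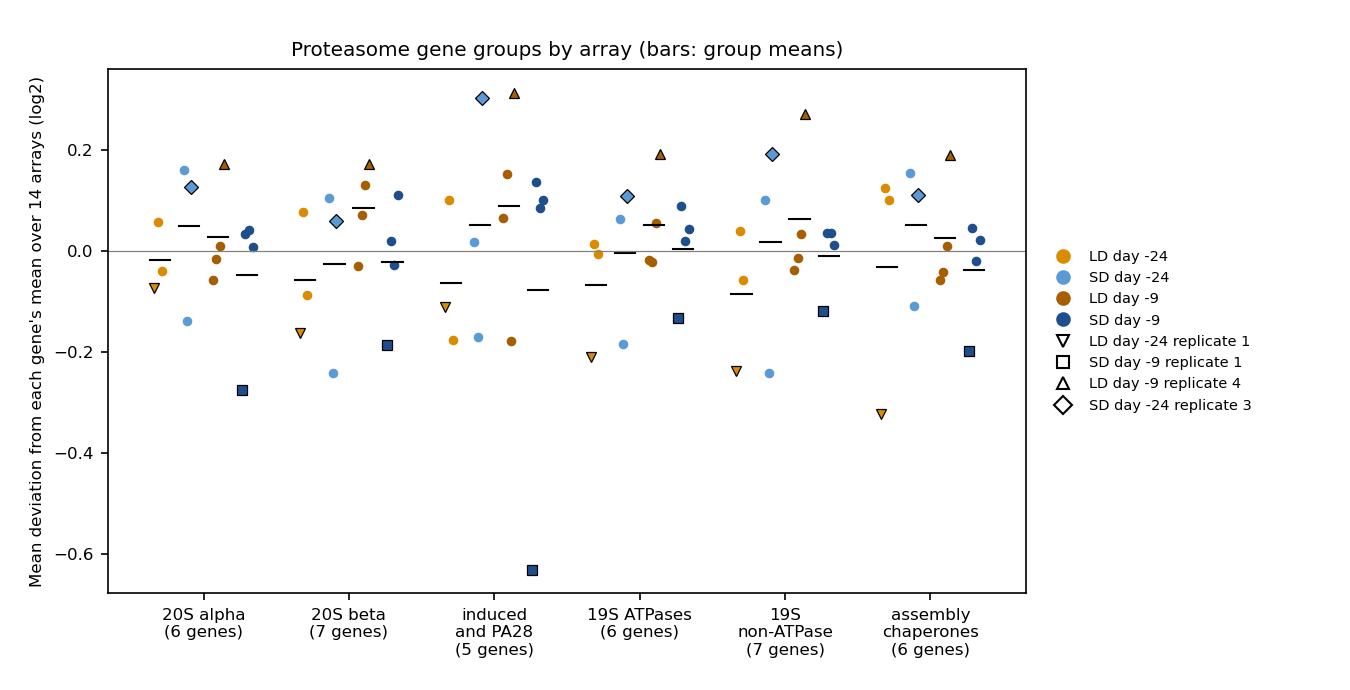
Mean log2 signal of groups of proteasome genes on each array, every gene centred on its mean over the 14 arrays (y axis, log2), by role of the genes (x axis); points are arrays, coloured by photoperiod (LD long, SD short days) and day, with own symbols for the 4 arrays of low weight, and bars are means over the arrays of a photoperiod and day. For the induced subunits and PA28 the short-day replicate 1 of day -9 lies lowest at -0.63 and the long-day replicate 4 of day -9 highest at 0.31.

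At day -24 the proteasome genes showed no difference between short and long days that passed the test, and their small differences were mostly above 0. By limma with Benjamini-Hochberg adjustment over 24016 probe sets, 0 of the 46 probe sets were called, as were 0% of all probe sets, and the smallest adjusted p of a member was 0.9997. At an unadjusted p under 0.05, 0 members stood out, against 2.42% of all. The median log2 difference, short minus long days, was 0.085 over the 40 genes, with 31 above 0 and 9 below. Over all probe sets the median was 0.012 and 52.7% were above 0. The largest differences of either sign were 0.27 for PSMG3 and -0.28 for PSMB5. All 46 intervals of 95% lay within a 2-fold difference in either direction.

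The constitutive core leaned little at day -24. The alpha ring had a median of 0.050 (5 of 6 above 0) and the constitutive beta ring 0.044 (5 of 7). PSMB6, the caspase-like catalytic subunit, had log2 signals of 9.05, 9.47 and 9.35 in long days and 9.53, 9.26 and 9.64 in short days, with long-day replicate 1 low. The difference was 0.18 (SE 0.15, limma adjusted p = 0.9997), and the groups overlapped. PSMB5, the chymotrypsin-like subunit, had 10.48, 10.86 and 10.45 in long days and 10.87, 10.004 and 10.09 in short days. Short-day replicates 2 and 3 lay below all long-day arrays, but replicate 1 was above them. Its difference of -0.28 had a 95% interval of -0.78 to 0.23, and was -0.55 without short-day replicate 1 and -0.12 without short-day replicate 2. That of PSMB6 was 0.061 without long-day replicate 1.

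The regulatory particle was similar. Of the 6 ATPases, 5 were above 0 with a median of 0.071, and of the 7 non-ATPase subunits 6, with a median of 0.10. PSMD13, a structural subunit of the 19S lid, had log2 signals of 8.02, 8.45 and 8.27 in long days and 8.53, 8.16 and 8.73 in short days. Long-day replicate 1 was the lowest array, the groups overlapped, and the difference was 0.23 (SE 0.17, limma adjusted p = 0.9997). PSMD6, another lid subunit, differed by 0.20 and PSMC1, an ATPase, by 0.20, both with overlapping groups. PSMG3, part of a chaperone that builds the alpha ring, had 8.77, 9.12 and 9.32 in long days and 9.19, 9.15 and 9.68 in short days. Again long-day replicate 1 was low and short-day replicate 3 high, and the difference of 0.27 (SE 0.18) had the smallest p of the members at this day (0.156, limma adjusted 0.9997). Without long-day replicate 1 the differences were smaller, at 0.11 for PSMD13, 0.067 for PSMD6, 0.070 for PSMC1 and 0.12 for PSMG3. Without all 4 arrays of low weight they were below 0, at -0.021 for PSMB6, -0.016 for PSMD13, -0.020 for PSMD6, -0.010 for PSMC1 and -0.046 for PSMG3.

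At day -9 the signs were turned round, again with no call. None of the 46 probe sets passed the adjusted threshold in limma (0 of 46, and 0% of all), and 0 had an unadjusted p under 0.05, against 2.77% of all. The smallest adjusted p of a member was 0.984. The median over the 40 genes was -0.088, with 8 above 0 and 32 below. All probe sets had a median of 0.0011, with 49.8% below 0. All 46 intervals again lay within 2-fold. The median was -0.11 for the constitutive core (12 of 13 genes below 0), -0.071 for the 19S subunits (10 of 13) and -0.16 for the induced subunits and PA28 (5 of 5).

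PSMB1, a non-catalytic beta subunit, had log2 signals of 10.94, 10.96, 10.92 and 11.27 in long days and 10.76, 10.84, 10.84 and 10.99 in short days at day -9. Long-day replicate 4 stood above the other 7 arrays, and short-day replicate 4 lay above the other 3 long-day arrays. The difference was -0.17 (SE 0.12, limma unadjusted 0.196, limma adjusted p = 0.984). PSMB6 differed by -0.15 (SE 0.13), and the ATPase gene PSMC5 by -0.16 (SE 0.14). PSMD1, a large scaffold subunit of the 19S base, had 9.75, 9.61, 9.73 and 10.26 in long days and 9.62, 9.65, 9.60 and 9.66 in short days. Its difference of -0.20 (SE 0.18) came with long-day replicate 4 far above the rest. PSME3IP1 was among the few genes above 0, at 0.16 (SE 0.14). Without long-day replicate 4 these differences were closer to 0, at -0.083 for PSMB1, -0.089 for PSMB6, -0.071 for PSMC5, -0.065 for PSMD1 and 0.054 for PSME3IP1. Without all 4 arrays of low weight they were -0.050 for PSMB1, -0.044 for PSMB6, 0.018 for PSMC5, -0.062 for PSMD1 and 0.13 for PSME3IP1.

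**Figure D2:**
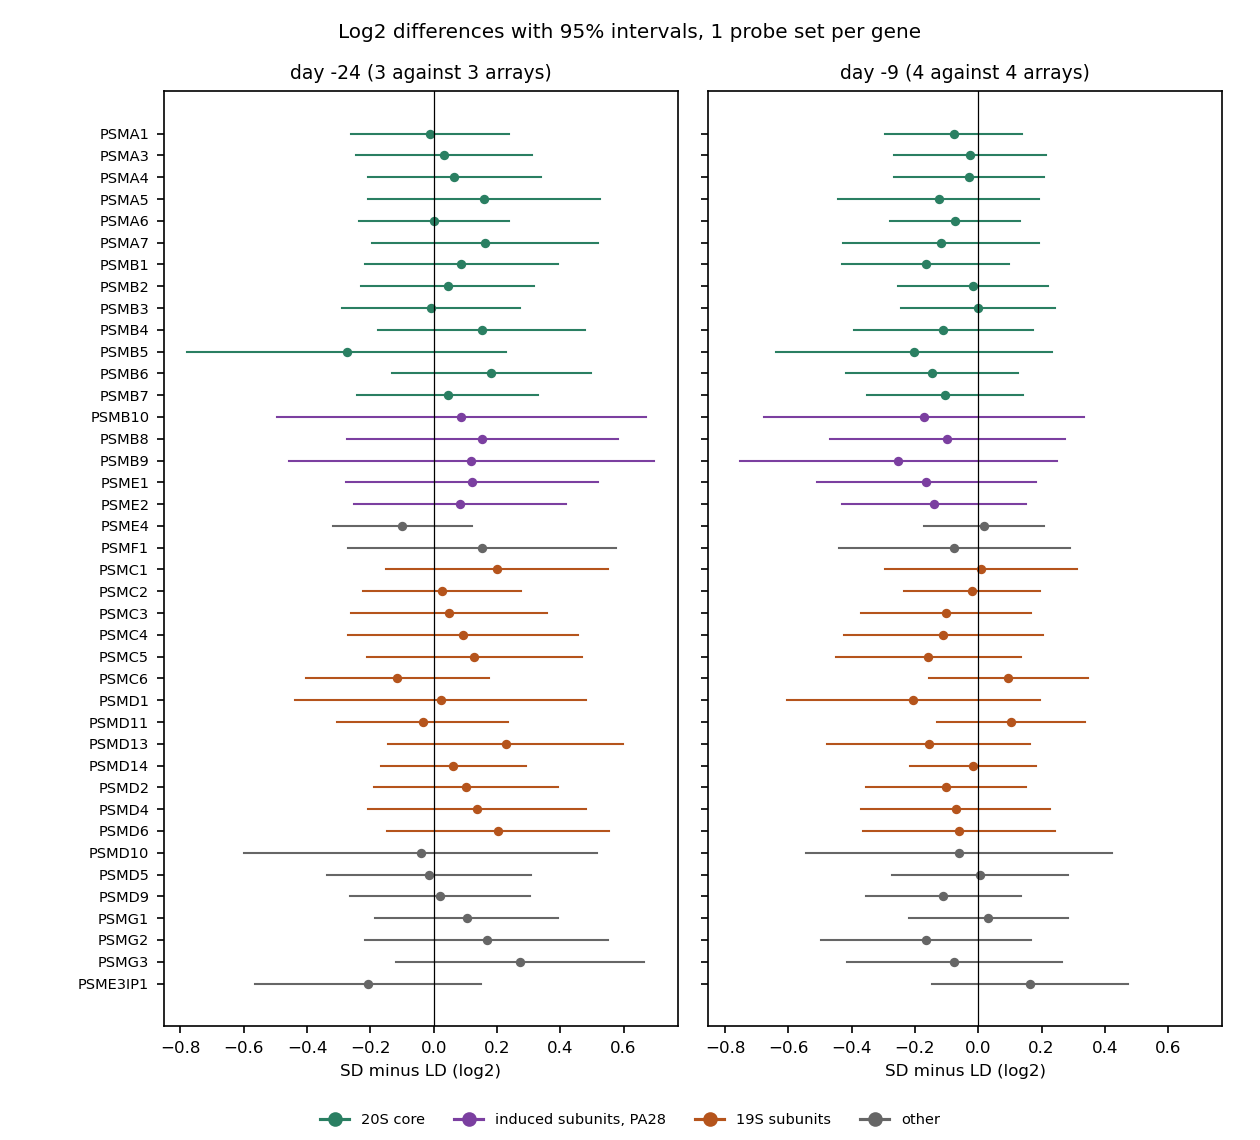
Log2 difference, short days (SD) minus long days (LD), with its 95% interval from limma (x axis) for each of the 40 genes (y axis), at day -24 (left) and day -9 (right); colours mark the role. All intervals include 0, and points lie mostly right of 0 at day -24 (31 of 40) and left of it at day -9 (32 of 40).

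Of the roles, the induced catalytic subunits had the largest median spread (0.355), while that of PA28 was 0.204. PSMB8, which replaces PSMB5, had log2 signals of 11.55, 11.83 and 11.45 in long days and 11.77, 11.52 and 12.01 in short days at day -24, and 11.77, 11.80, 11.58 and 11.89 in long days and 11.13, 11.82, 11.85 and 11.85 in short days at day -9. The short-day replicate 1 of day -9 was lowest, and the groups overlapped on both days. Short minus long days was 0.15 (SE 0.20, limma adjusted p = 0.9997) at day -24 and -0.10 (SE 0.17, limma adjusted p = 0.984) at day -9. PSMB9, which replaces PSMB6, had 10.49, 10.64 and 10.39 in long days and 10.52, 10.29 and 11.06 in short days at day -24, and 10.56, 10.69, 10.30 and 11.03 in long days and 9.70, 10.61, 10.65 and 10.62 in short days at day -9. A single array, the short-day replicate 1 of day -9, lay below all others. Its differences were 0.12 (SE 0.27) and -0.25 (SE 0.23).

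PSMB10, which replaces PSMB7, had log2 signals of 9.30, 9.46 and 9.08 in long days and 9.24, 9.04 and 9.82 in short days at day -24, and 9.57, 9.58, 8.99 and 9.89 in long days and 8.76, 9.60, 9.52 and 9.46 in short days at day -9. The same short-day array was lowest, and the long-day arrays of day -9 alone ranged from 8.99 to 9.89. The difference was 0.087 (SE 0.27) at day -24 and -0.17 (SE 0.23) at day -9. PSME1, the alpha subunit of PA28, had 11.81, 12.07 and 11.85 in long days and 12.06, 11.93 and 12.10 in short days at day -24, and 12.07, 12.15, 11.91 and 12.19 in long days and 11.36, 12.14, 12.04 and 12.13 in short days at day -9. Apart from the short-day replicate 1 of day -9, all its arrays lay between 11.81 and 12.19. PSME1 differed by 0.12 (SE 0.18) and -0.16 (SE 0.16), and PSME2, the beta subunit, by 0.084 (SE 0.16) and -0.14 (SE 0.13). Without the short-day replicate 1 of day -9 together with the long-day replicate 1 of day -24, the day -9 differences were 0.080 for PSMB8, -0.021 for PSMB9, 0.021 for PSMB10, 0.021 for PSME1 and -0.0023 for PSME2. At day -24, without the short-day replicate 3 of that day and the long-day replicate 4 of day -9, they were 0.032 for PSMB8, -0.10 for PSMB9 and -0.14 for PSMB10, and PSME1 was at 0.069 without the long-day replicate 1.

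The swap of catalytic subunits was compared as the log2 signal of the induced subunit minus that of its constitutive counterpart on the same array. PSMB8 minus PSMB5 was 1.02 ± 0.049 (standard deviation, n = 3) in long days and 1.44 ± 0.51 (n = 3) in short days at day -24. The change of 0.43 had an exact two-sided permutation p of 0.4, where 0.1 is the smallest that 3 against 3 arrays allow. At day -9 the values were 1.004 ± 0.43 (n = 4) and 1.11 ± 0.38 (n = 4), with an exact permutation p of 0.6 where 0.0286 is the smallest possible. For PSMB9 minus PSMB6 short and long days differed by -0.063 at day -24 and -0.11 at day -9, and for PSMB10 minus PSMB7 by 0.043 and -0.066. All 6 such tests had an adjusted p of 0.8. These differences of signals from distinct probe sets are no ratio of transcript numbers.

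**Figure D3:**
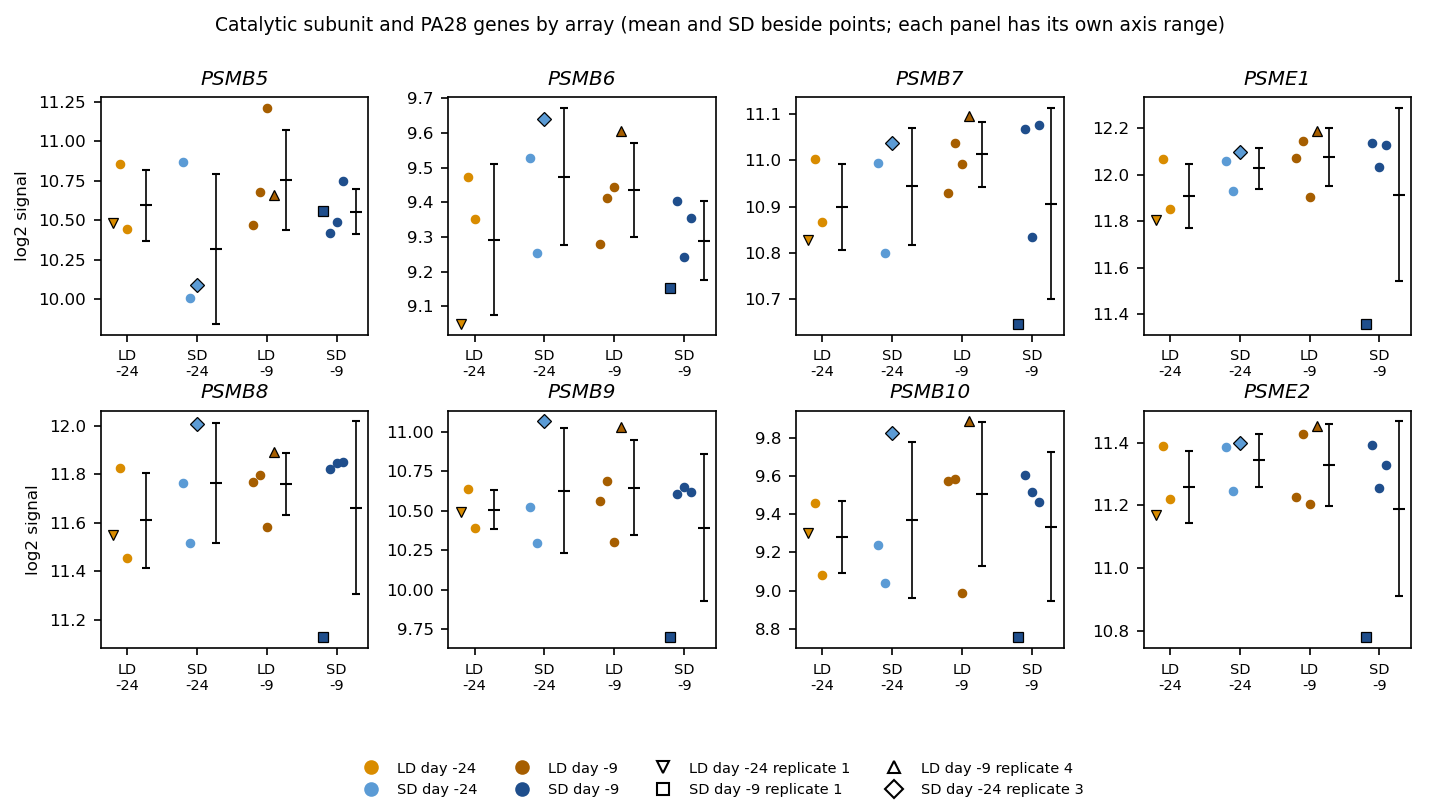
Log2 signal (y axis) of the constitutive catalytic subunit genes PSMB5, PSMB6 and PSMB7 of their induced counterparts PSMB8, PSMB9 and PSMB10, and of the PA28 genes PSME1 and PSME2 on each of the 14 arrays, by photoperiod (LD long, SD short days) and day (x axis); points are arrays, with own symbols for the 4 arrays of low weight, and the bars beside them are the mean with 1 standard deviation. In each panel the short-day and long-day arrays of a day overlap, and the short-day replicate 1 of day -9 is the lowest array in all panels except those of PSMB5 and PSMB6.

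Neighbouring genes among these varied together. Between PSMB8 and PSMB9, Pearson's r over the 14 arrays was 0.93, and 0.95 for deviations from group means. Between PSME1 and PSME2 it was 0.96, and 0.97 for deviations. These are beside a median of 0.91 over all 10 pairs of the induced subunits and PA28. The genes of both pairs lie close together in the RefSeq annotation of the bovine assembly ARS-UCD2.0. Only TAP1, a subunit of the peptide transporter of antigen presentation, lies between PSMB8 and PSMB9 among protein-coding genes, and only EMC9 between PSME1 and PSME2. TAP1 had r = 0.94 with PSMB9. Without the 2 arrays farthest from the median of PSMB8, PSME1 or PSMB9, r was 0.87 for PSMB8 with PSMB9, 0.82 for PSME1 with PSME2 and 0.79 for PSMB9 with TAP1.

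The induced subunits were also read beside the counterparts they replace. For deviations from group means, r was 0.016 between PSMB5 and PSMB8, 0.62 between PSMB6 and PSMB9 and 0.70 between PSMB7 and PSMB10. The median over all 65 pairs of a core gene with an induced or PA28 gene was 0.70, so PSMB7 with PSMB10 lay at that median, PSMB6 with PSMB9 below it and PSMB5 with PSMB8 far below it. PSMB5 was weakly correlated with the members in general, with a median of 0.26, against 0.59 over all pairs of members. The T cell gene CD3E had r = 0.52 with PSMB8, 0.63 with PSMB9 and 0.70 with PSMB10. For the signals as measured these were 0.52, 0.61 and 0.67. They were 0.26, 0.44 and 0.33 without the 2 arrays farthest from the subunit's median. Taken so by the first gene named, PSMB7 with PSMB10 went from 0.73 to 0.48, PSMB6 with PSMB9 from 0.65 to 0.69 and PSMB5 with PSMB8 from 0.0052 to -0.038. Correlations of these genes with other T and NK cell markers were not computed. All these pairs were picked after the values were seen and share the 14 arrays, so the correlations are descriptions with no test.

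Markers of other cell types were read beside the induced genes. The centred mean of 15 T and NK cell markers ranged over -0.15 to 0.18 in long days and -0.17 to 0.25 in short days at day -24, and over -0.51 to 0.33 and -0.47 to 0.25 at day -9. For 10 macrophage and dendritic cell markers the ranges were -0.11 to 0.19, -0.15 to -0.029, -0.0017 to 0.67 and -0.45 to 0.13 in the same order. The short-day replicate 1 of day -9 had -0.47 for the T and NK markers and -0.63 for the induced subunits and PA28. The long-day replicate 3 of day -9 had -0.51 and -0.18. Not all markers were low on the short-day replicate 1 of day -9. It had -0.28 for the macrophage and dendritic cell markers, 0.12 for 6 B and plasma cell markers and 0.73 for 9 neutrophil markers. It was the highest of the 14 arrays for the neutrophil markers, for 14 luminal epithelial markers (0.41), for 9 myoepithelial markers (0.73) and for 7 skeletal muscle markers (0.51). The markers' part in the induced genes' values was not tested.

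Averaged over both days, short and long days did not separate the proteasome genes. In limma 0 of the 46 probe sets were called (of all, 0%), and 0 had an unadjusted p under 0.05, against 1.94% of all probe sets. The 40 genes were 20 above and 20 below 0, with a median of -0.0018, where 52.2% of all probe sets were above 0. PSMB5 had the smallest p, with 10.47, 10.68, 11.21 and 10.66 in long days and 10.56, 10.42, 10.49 and 10.75 in short days at day -9, beside the day -24 values given above. Long-day replicate 3 of day -9 was its highest array, and the averaged difference was -0.24 (95% interval -0.57 to 0.094, limma unadjusted 0.146, limma adjusted p = 0.9999). The next were PSMC1 (0.10), PSMG3 (0.10), PSMG1, the partner of PSMG2 in alpha-ring assembly (0.068), PSMD6 (0.072) and PSMD1 (-0.091). PSMB5 was at -0.38 without the short-day replicate 1 of day -24. Without the 4 arrays of low weight the values were -0.23 for PSMB5, 0.055 for PSMC1, -0.0042 for PSMG3, 0.091 for PSMG1, 0.023 for PSMD6 and -0.12 for PSMD1.

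From day -24 to day -9 under long days, most proteasome genes had higher means, with no call after adjustment. Of the 46 probe sets, 0 passed in limma (of all, 0%), with a smallest adjusted p of 0.651. At an unadjusted p under 0.05, 4 were higher and 1 lower, against 3.61% and 3.86% of all probe sets. All day -9 arrays lay above all day -24 arrays for 5 of the 46 (4.32% of all) and below them for 1 (4.66% of all). The median over the 40 genes was 0.13, day -9 minus day -24, with 31 above 0, against 0.0030 over all probe sets and 50.5% above 0. By role it was 0.23 for the 19S non-ATPase subunits, 0.14 for the ATPases, 0.14 for the constitutive beta ring (7 of 7 above 0), 0.15 for the induced subunits and PA28 (5 of 5) and 0.018 for the alpha ring (4 of 6).

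Cell type markers were read between the days as well. The centred mean of the 14 luminal epithelial markers ranged over -0.14 to -0.050 at day -24 and -0.0014 to 0.15 at day -9 under long days, and over -0.17 to -0.066 and -0.044 to 0.41 under short days, without overlap of the days in either photoperiod. The 9 myoepithelial markers ranged over -0.52 to -0.015 and -0.15 to 0.21 under long days and -0.32 to 0.026 and -0.13 to 0.73 under short days. For 10 adipocyte markers the ranges were -0.51 to -0.022 and -0.13 to 0.54 under long days and -0.51 to 0.14 and -0.21 to 0.53 under short days. The days overlapped for both of these lists. The part of these markers in the day differences was not tested.

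PSMC3, an ATPase of the 19S base, had the smallest p under long days among the probe sets that describe the genes. Its log2 signals were 9.83, 10.06 and 9.999 at day -24 and 10.21, 10.21, 10.16 and 10.55 at day -9, a difference of 0.32 (SE 0.13, 1.25-fold, limma unadjusted 0.0323, limma adjusted p = 0.651). Every long-day array of day -9 was above every one of day -24, with replicate 4 the highest. Under short days PSMC3 had 9.92, 9.85 and 10.26 at day -24 and 10.17, 10.29, 10.05 and 10.20 at day -9, where the groups overlapped and the difference was 0.17 (SE 0.13). Averaged over photoperiods it was 0.24 (SE 0.095, limma unadjusted 0.0226, limma adjusted p = 0.636). Without the 4 arrays of low weight it was 0.16 under long days, 0.29 under short days and 0.23 averaged.

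PSMD13 had 8.02, 8.45 and 8.27 at day -24 and 8.41, 8.59, 8.61 and 8.90 at day -9 under long days. The day -24 replicate 1 was the lowest, the groups overlapped, and the difference was 0.38 (SE 0.16, limma adjusted p = 0.651). Without the 4 arrays it was 0.18. PSMD4, the 19S receptor that binds ubiquitin chains, was measured by both of its probe sets. They gave 0.27 (SE 0.15) and 0.34 (SE 0.14, limma adjusted p = 0.651), the additional one without overlap of the days. PSMB1 differed by 0.22 (SE 0.13), also without overlap, and PSMB4, a structural beta subunit, by 0.23 (SE 0.14). The ATPase gene PSMC2 had no overlap either, at 0.11 (SE 0.11), but its additional probe set gave -0.089. The additional probe set of PSMC5, whose mean lies below the array medians, gave 0.49 against 0.20 for the one described. Without the 4 arrays the described probe sets gave 0.18 for PSMD4, 0.092 for PSMB1, 0.15 for PSMB4, 0.076 for PSMC2 and 0.042 for PSMC5.

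PSMC6 was 1 of the 9 genes below 0 under long days. This ATPase gene had 10.08, 10.02 and 10.15 at day -24 and 9.94, 9.88, 9.996 and 9.70 at day -9. All day -9 arrays were below all day -24 arrays, and the difference was -0.20 (SE 0.13, limma adjusted p = 0.665), or -0.15 without the 4 arrays. Its additional probe set, of lower signal, had 6.58, 7.03 and 7.45 at day -24 and 6.64, 6.71, 6.13 and 6.13 at day -9, where the groups overlapped. It gave -0.62 (SE 0.25, limma unadjusted 0.0296, limma adjusted p = 0.651). Under short days the probe sets gave 0.0057 and -0.40, so they did not share a direction there.

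Under short days the day difference of the proteasome genes was smaller and mostly below 0. In limma 0 of the 46 probe sets were called (of all, 0%) and 0 had an unadjusted p under 0.05, against 4.56% of all. The median over the 40 genes was -0.036, with 12 above 0 and 28 below, against -0.015 over all probe sets and 53.3% below 0. PSMG2, a chaperone of alpha-ring assembly, differed by -0.26 (SE 0.17), PSMB6 by -0.19 (SE 0.14), PSMA1 by -0.18 (SE 0.11) and PSMD14 by -0.11 (SE 0.10). PSME3IP1 had the smallest p, with 8.996, 9.22 and 8.75 at day -24 and 9.08, 9.41, 9.28 and 9.43 at day -9. Its groups overlapped, and it was higher at day -9 by 0.31 (SE 0.15, limma unadjusted 0.0635, limma adjusted p = 0.97). Without the 4 arrays these values were -0.12 for PSMG2, -0.057 for PSMB6, -0.15 for PSMA1, -0.074 for PSMD14 and 0.27 for PSME3IP1.

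Averaged over photoperiods, 0 of the 46 probe sets passed in limma (of all, 0%). At an unadjusted p under 0.05 there were 3, PSMC3 and the additional probe sets of PSMC6 (-0.51) and PSMD4 (0.22), against 7.72% of all probe sets. The median over the 40 genes was 0.030, with 25 above 0, as were 50.2% of all probe sets. PSMA1 differed by -0.15 (SE 0.077), PSMB3, a structural beta subunit, by 0.13 (SE 0.086) and PSMB5 by 0.20 (SE 0.15). With the 4 arrays left out, the values were -0.14 for PSMA1, 0.15 for PSMB3 and 0.13 for PSMB5.

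**Figure D4:**
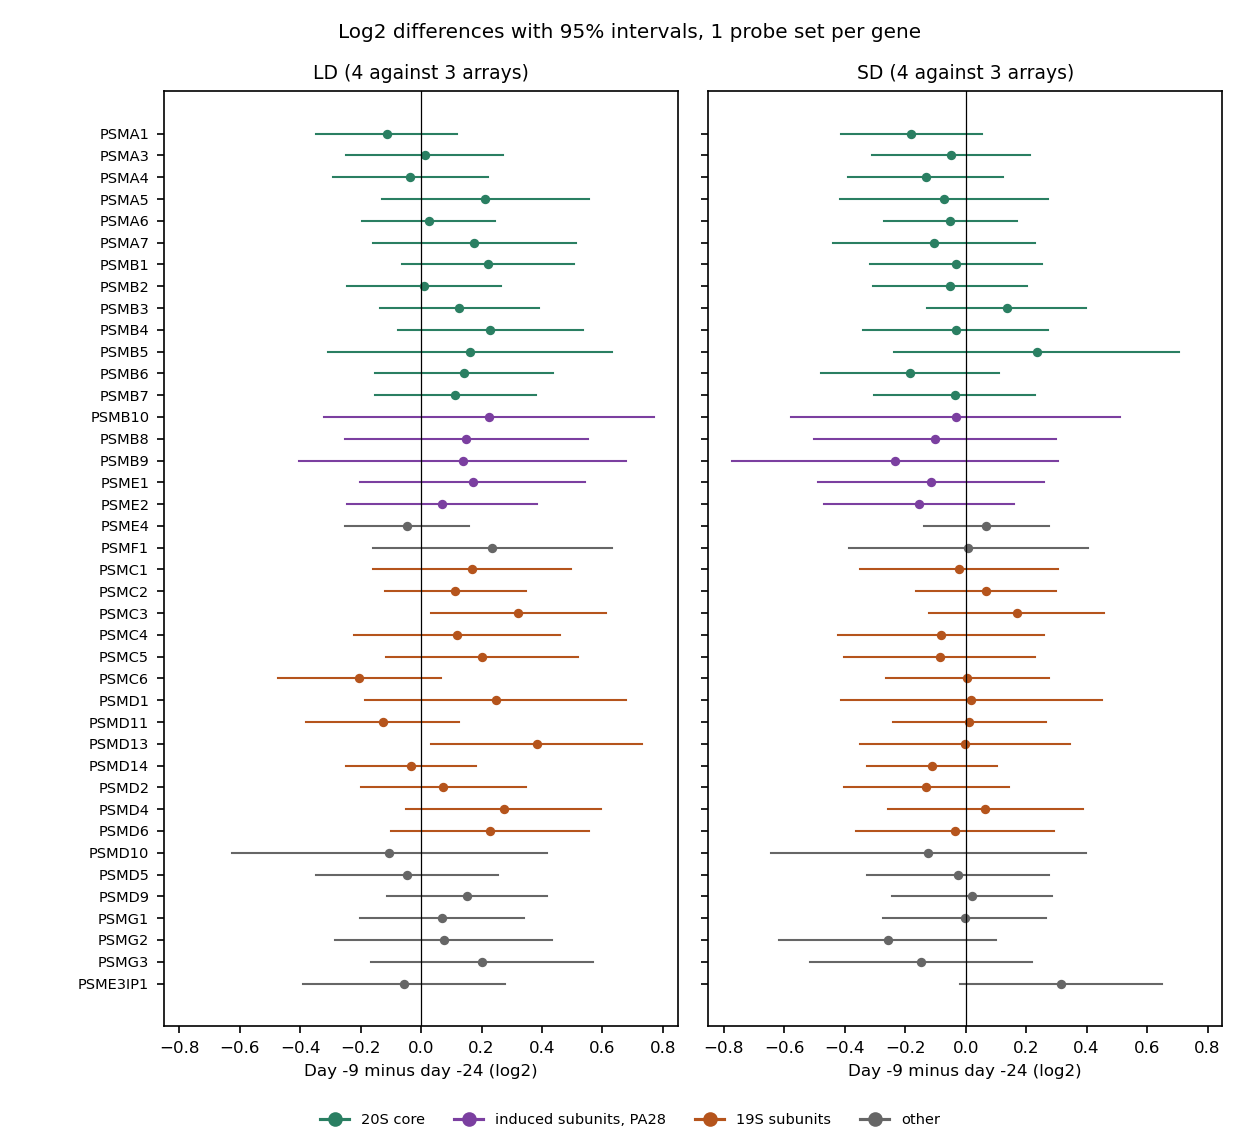
Log2 difference, day -9 minus day -24, with its 95% interval from limma (x axis) for each of the 40 genes (y axis), in long days (LD, left) and short days (SD, right); colours mark the role. In long days 31 of 40 points lie right of 0 and the intervals of PSMC3 and PSMD13 leave it out before adjustment, and in short days 28 of 40 lie left of 0.

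The turn of sign between the days was read directly as the day -9 difference minus the day -24 difference, short minus long days. None of the 46 probe sets passed in limma (0, and 0% of all), and 0 had an unadjusted p under 0.05, against 4.15% of all. The median over the 40 genes was -0.20, with 33 below 0, against -0.016 over all probe sets and 52.1% below 0. Among the probe sets that describe the genes, the smallest p belonged to PSMB6 at -0.33 (SE 0.19, limma unadjusted 0.112, limma adjusted p = 0.9). PSMD13 followed at -0.38, PSME3IP1 at 0.37, PSMG3 at -0.35, PSMG2 at -0.33 and PSMC5 at -0.29. Without the 4 arrays of low weight these were -0.022 for PSMB6, 0.0080 for PSMD13, 0.13 for PSME3IP1, 0.083 for PSMG3, 0.034 for PSMG2 and 0.064 for PSMC5. Short days were above long days at day -24 and below them at day -9 for 34 of the 46 probe sets, as for 32% of all, and for 29 of the 40 genes. All 5 induced and PA28 genes, 10 of the 13 constitutive core genes and 10 of the 13 19S subunits had that order. The genes share their arrays, so these counts are not independent of each other.

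That order was less frequent without pairs of the 4 arrays of low weight and absent without all 4. Without the long-day replicate 4 of day -9 and the short-day replicate 3 of day -24, 15 of the 40 genes had it (23.8% of all probe sets). The median of the day -9 difference minus the day -24 difference was then -0.037. Without the long-day replicate 1 of day -24 and the short-day replicate 1 of day -9, 16 of the 40 had it (26.6% of all probe sets), and the median was -0.049. Without all 4, 0 of the 40 had it, against 20.3% of all probe sets, and the median was 0.078. The photoperiod medians were then -0.037 at day -24 (11 genes above 0) and 0.038 at day -9 (31 above 0). In the mean of the 40 genes, the arrays left out were the lowest of long days (-0.17) and the highest of short days (0.13) at day -24. At day -9 they were the highest of long days (0.20) and the lowest of short days (-0.22). Leaving them out therefore moves both differences against that order, so these values are no test of it. The choice was made after seeing the data. It takes 1 array from each group, of 3 at day -24 and of 4 at day -9. The gap between 3' and 5' probe sets was largest of all 14 arrays for the short-day replicate 3 of day -24 (1.18), and the long-day replicate 4 of day -9 had 1.07 against 0.76 to 0.88 for the rest of its group. Between them lay the short-day replicate 2 of day -24 (1.09), where the mean of the 40 genes was low (-0.18). The long-day replicate 1 of day -24 (0.96) and the short-day replicate 1 of day -9 (0.83) had gaps between those of the other arrays in their groups. The part of RNA quality in these results was not tested. Single arrays also moved the medians. At day -24 it was 0.0079 without short-day replicate 3 and 0.17 without short-day replicate 2, and at day -9 it was -0.017 without short-day replicate 1.

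**Figure D5:**
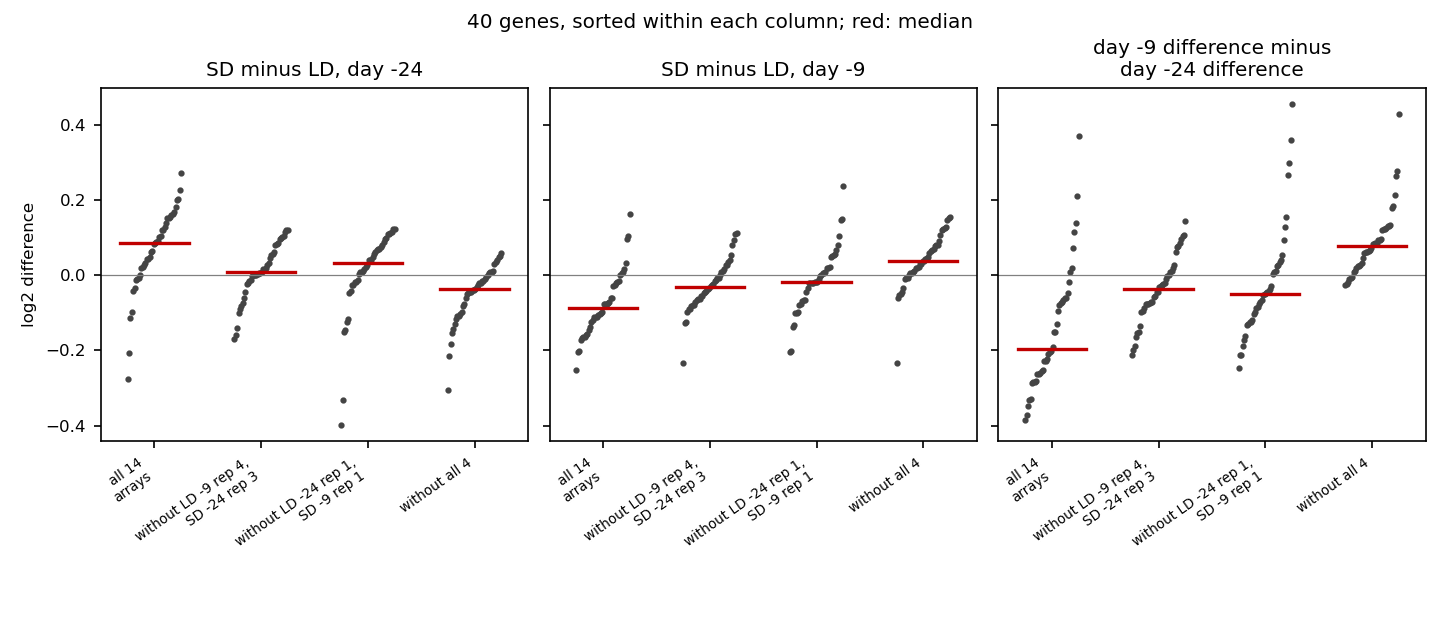
Log2 differences of the 40 genes (y axis, 1 point per gene, sorted within each column, red bars at medians) with all 14 arrays and without the arrays of low weight (x axis), for short minus long days at day -24, at day -9 and for the difference between them. The median of the difference goes from -0.20 with all arrays to 0.078 without the 4.

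The day difference under long days shifted without these arrays as well. Its median over the 40 genes was 0.071 without the long-day replicate 4 of day -9 and the short-day replicate 3 of day -24. It was 0.064 without the long-day replicate 1 of day -24 and the short-day replicate 1 of day -9, and 0.0037 without all 4. Under short days it was 0.095 without the 4. Averaged over photoperiods it was 0.047, against 0.030 with all arrays. None of the 280 probe sets that were lower by at least 0.7 in both the long-day replicate 4 of day -9 and the short-day replicate 3 of day -24 than in every other array was a member. These 280 are a small share of the 24016 tested, and the members tended to be high on these 2 arrays. Their absence therefore says little about the members.

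Other genes of the pathway were read from 5 lists with 54 measured genes. By limma 0 of the 54 passed the adjusted threshold in any of the 7 comparisons. Lack of overlap is given for these genes only as a description. For 3 against 3 arrays, a share of 0.1 of all arrangements separates the groups fully, so some of 54 genes may do so by chance. The share of all probe sets without overlap is not given here for day -24 or for the days in short days. At day -24 the median over the 54 was 0.015 and at day -9 -0.010, short minus long days, with 17 of the 54 above 0 at day -24 and below 0 at day -9. Of 14 other subunits, assembly factors and bound proteins, UBE3C, a ubiquitin ligase of the proteasome, had 5.32, 5.49 and 5.43 in long days and 5.32, 4.50 and 5.09 in short days at day -24. All short-day arrays were below all long-day arrays, and the difference was -0.44 (SE 0.18, limma unadjusted 0.029, limma adjusted p = 0.9997). Its signals were low, below the median of every array. UBQLN2, a shuttle for tagged proteins, differed by -0.30 from day -24 to day -9 under short days, without overlap, and the shuttle RAD23B by -0.15 averaged over photoperiods.

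Regulators of subunit genes gave no call either. NFE2L1, the factor that restores subunit transcription when the proteasome is inhibited, differed between short and long days by 0.060 (SE 0.16) at day -24 and 0.024 (SE 0.14) at day -9. KEAP1, the adaptor that has NFE2L2 degraded, had 0.36 (SE 0.15, limma adjusted p = 0.651) from day -24 to day -9 under long days, without overlap. Among 14 genes of ubiquitin and its activation, UBA6, which activates ubiquitin, was at -0.35 under long days, -0.37 under short days and -0.36 averaged (SE 0.10, limma unadjusted 0.00316, limma adjusted p = 0.636). UFD1, a cofactor of the segregase that extracts tagged proteins, was at 0.29 under long days.

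FBXO32, which encodes the ubiquitin ligase subunit atrogin-1 known from muscle wasting, had the smallest p of the 54 genes. Its log2 signals were 8.06, 8.46 and 8.08 in long days and 7.87, 8.28 and 8.04 in short days at day -24, and 8.77, 8.67, 8.57 and 8.33 in long days and 8.99, 8.64, 8.45 and 8.54 in short days at day -9. Under short days all day -9 arrays were above all day -24 arrays, whereas under long days the days overlapped. The averaged difference was 0.49 (SE 0.12, 1.4-fold, limma unadjusted 0.00106, limma adjusted p = 0.636). Among 16 genes of class I presentation and interferon gamma response, CALR, a chaperone of the endoplasmic reticulum, differed by -0.81 (SE 0.32, limma adjusted p = 0.9997) between short and long days at day -24, without overlap. IRF2, an interferon regulatory factor, was at 0.65 (SE 0.22, limma adjusted p = 0.97) from day -24 to day -9 under short days. TAP1 differed between photoperiods by 0.12 (SE 0.20) at day -24 and -0.14 (SE 0.17) at day -9, values of the same signs as those of PSMB8 and PSMB9 beside it. In the list of 16 as a whole, 5 genes were above 0 at day -24 and below 0 at day -9, where 32% of all probe sets were.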

How the data were processed

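Expression was measured in 14 bovine mammary biopsies on Affymetrix arrays, without read depth. The authors deposited log2 signals per probe set, summarised by RMA, per the submitters' processing notes. Background correction, normalisation across arrays and summary over probes are part of RMA, and differences of low signals are compressed by it. Software, version and genome build are not given in the sources used here. Control probe sets (112) were left out. A model with a mean for each of the 4 groups was fitted to all arrays with limma 3.58.1 (R 4.3.3), without a filter, and 7 contrasts were tested, two-sided, with Benjamini-Hochberg adjustment over 24016 probe sets and a threshold of 0.05. Only the 6 comparisons of induced minus constitutive signal between photoperiods were tested by exact permutation, in R. The procedure was tested on simulated data.

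Gene names came from the array annotation. Members, lists and comparisons were chosen with earlier results of these data known. Always named were the catalytic subunits and PA28, with the 6 genes of smallest p per comparison, and up to 4 genes per pathway list. The pattern also named PSME3IP1, which is described apart. Replicate numbers are not stated to mark cows and were not used as a block in the reported fit. Alternatives were other normalisations, filters, probe set choices, array weights, blocks, sample subsets and omitted arrays.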

Additional observations from a re-analysis of the deposited data

Results flagged for a closer look

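In groups of 4 arrays, 82 sets of values of the members and of their mean were searched for an array far from the other 3, and 14 had one, where chance gives about 1 in 20. All 14 lay in 1 of 2 arrays of day -9, the only day with groups of 4. Both arrays are among the 4 of low weight, which was estimated over all probe sets. The search was not made over all probe sets, so whether such a share is particular to the proteasome genes is not known. The long-day replicate 4 was far above the others for PSMA7 (11.09), PSMB1 (11.27), PSMC3 (10.55), PSMD2, a scaffold subunit of the 19S base (10.34), PSMD10 (8.05) and PSMG2 (9.51), all log2 signals. It was also far above them for the centred mean of the 40 genes (0.20). The short-day replicate 1 was far below the others for PSMA7 (10.48), PSMB2 (10.08), PSMB8 (11.13), PSMB9 (9.70), PSMB10 (8.76) and PSME1 (11.36), and for the centred mean of the 40 genes (-0.22). The values of different genes share these arrays and are not independent of each other.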

How the results depend on the processing

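In the comparisons of the proteasome genes, 0 members passed the threshold under any alternative, with a smallest adjusted limma p of 0.385. Of 1841 recomputed differences of named members, 60 had the opposite sign, 15 of them without 1 array. Many of the 1841 could not change. Filters, settings of the variance estimate and a fit to only the groups compared leave a difference as it was. So does omission of an array outside the groups compared. The count of 60 is therefore no measure of stability. Omitting 1 array each gave, for short minus long days at day -24, PSMB7 -0.0031 to 0.12, PSMB9 -0.10 to 0.29, PSMB10 -0.14 to 0.25. It gave, at day -9, PSMB8 -0.16 to 0.080, PSMB10 -0.35 to 0.021, PSME1 -0.24 to 0.021. It gave PSMD1 -0.19 to 0.046 for the average over days and, from day -24 to day -9 in short days, PSMB7 -0.11 to 0.049, PSMB8 -0.22 to 0.076, PSMB10 -0.20 to 0.20, PSME1 -0.19 to 0.071. Without the long-day replicate 4 of day -9 and the short-day replicate 3 of day -24, the turned values were PSMB7 -0.0031, PSMB9 -0.10 and PSMB10 -0.14 at day -24 and PSMB7 0.010, PSMB8 0.020 and PSMB10 0.20 for the days in short days. Without the long-day replicate 1 of day -24 and the short-day replicate 1 of day -9, they were PSMB8 0.080, PSMB10 0.021 and PSME1 0.021 at day -9 and PSMB7 0.049, PSMB8 0.076, PSMB10 0.16 and PSME1 0.071 for the days in short days. With array weights they were PSMB8 0.031 and PSMB10 0.011 at day -9 and PSMB8 0.040 and PSMB10 0.19 for the days in short days. Without these 4 arrays together, an alternative chosen after seeing the data, they were PSMB6 -0.021, PSMB7 -0.039, PSMB9 -0.11, PSMB10 -0.13, PSMG3 -0.046, PSMD13 -0.016, PSMD6 -0.020 and PSMC1 -0.010 at day -24, PSMB7 0.0070, PSMB8 0.12, PSMB9 0.11, PSMB10 0.15, PSME1 0.058, PSME2 0.039 and PSMC5 0.018 at day -9, PSMG3 -0.0042 averaged over days, PSMB6 -0.035 and PSME2 -0.017 for the days in long days, PSMB7 0.10, PSMB8 0.20, PSMB9 0.22, PSMB10 0.39, PSME1 0.11 and PSME2 0.011 for the days in short days and PSMD13 0.0080, PSMG3 0.083, PSMG2 0.034 and PSMC5 0.064 for the difference between days. The cause was not tested beyond the choice of arrays.

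A median was counted as moved if it shifted by more than 0.128, the spread between arrays of the mean of the 40 genes. That limit exceeds the photoperiod medians, 0.085 at day -24 and -0.088 at day -9. Without the 4 arrays these turned to -0.037 and 0.038 and were still not counted. Filters and settings of the variance estimate cannot move a median. The median of the 40 genes moved by more than the limit in 6 of 197 recomputations. These were, without the 4 arrays, 0.0037 for the days in long days, 0.095 for the days in short days and 0.078 for the difference between days, which was also -0.050 with array weights, -0.037 without the first pair of arrays named above and -0.049 without the other pair. Over single omissions the medians ranged over 0.0079 to 0.17 at day -24, -0.11 to -0.017 at day -9, -0.031 to 0.048 averaged, 0.064 to 0.20 and -0.16 to 0.021 for the days in long and short days, -0.0036 to 0.075 averaged and -0.28 to -0.088 for the difference. Over all probe sets, counts past the threshold were 0 to 1 without 1 array, 1 for the days in short days without the first pair and without the 4 arrays, and 2 for the averaged days among probe sets of at least median signal. With the replicate number as a block the day -24 median was 0.085 and the days in long days gave 0.10, and the block changed no call. Of 19 pairs of same-numbered arrays 9 correlated above 0.1 (-0.34 to 0.33), and of the 6 within a photoperiod 4 did (-0.31 to 0.33). As not every pair did, the numbers were not taken as pairing, and whether some arrays share a cow is unknown. Background correction could not be varied from summarised values. Low signals limit UBE3C and the additional probe sets of PSMC5 and PSMC6.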

Other observations

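The probe sets of the 6 genes measured by more than one gave the same sign for all 6 in short minus long days at day -24 and at day -9. For the days they shared a sign in 5 of 6 genes under long days and in 3 of 6 under short days. For PSMC2 they gave 0.090 and -0.11 from day -24 to day -9 averaged over photoperiods, and for PSMB2 -0.022 and 0.058. PSME4 and PSMC6 had median correlations with the other members of -0.55 and -0.087, and both had the opposite sign to the median of the 40 genes in short minus long days on both days, -0.10 and 0.017 for PSME4 and -0.11 and 0.10 for PSMC6. Neither passed the test in limma.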
